A study of Mus musculus with 6 samples.

Results

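The 8 genes described here encode the aryl hydrocarbon receptor and the proteins that bind, mature, pair with or restrain it: Ahr (the receptor), Arnt (its DNA-binding partner), Hsp90ab1 and Hsp90aa1 (the HSP90 chaperones), Ptges3 (the co-chaperone p23), Ahrr (the receptor's repressor), Tiparp (an ADP-ribosyltransferase) and Hif1a (the oxygen-regulated protein that uses the same partner). They were found by gene symbol in the deposited table of normalised counts, which held all 8 members among its 16111 genes. The libraries were made from macrophages grown out of fetal liver of C57BL/6 RCC mice at embryonic stage E13.5, either wild-type (label WT) or lacking the repressor (AhRR-/-, label Ahrr), with mice numbered 1 to 3 in each genotype. Both genotypes shared the same culture, 5 weeks in RPMI with 2% GM-CSF, after which the non-adherent cells were taken. The labels name no inducer and give no oxygen level, and the part of Ahrr that the mutant allele removes is not given in the sources used here.

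The aryl hydrocarbon receptor waits in the cytosol bound to an HSP90 dimer and p23. On binding a ligand, such as dioxin or a tryptophan metabolite, it moves to the nucleus, sheds the chaperones, pairs with ARNT and binds DNA at sites with the core GCGTG. The repressor AhRR is a close relative that also pairs with ARNT and occupies the same sites without activating them, and its gene is itself a target of the receptor, which makes a feedback loop. TIPARP, another product of a target gene, ADP-ribosylates the receptor and limits its activity. HIF-1α, stabilised when oxygen is low, pairs with the same ARNT protein. In mice the repressor is best known from immune cells of barrier tissues such as gut and skin.

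Promoter windows from RefSeq (GRCm38.p6, 250 bases before to 50 bases after a gene's start) were at hand for 5 of the 8 genes: Ahrr, Tiparp, Arnt, Ptges3 and Hif1a. Those of the repressor and of Tiparp are shown because these are the members known as receptor targets. Both were lower in the mutant cultures, the repressor being the deleted gene itself. Capitals mark GCGTG on the printed strand or, as CACGC, on the other strand. The first window lies on the minus strand at chr13:74292282-74292581 and the second on the plus strand at chr3:65528197-65528496.

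Ahrr: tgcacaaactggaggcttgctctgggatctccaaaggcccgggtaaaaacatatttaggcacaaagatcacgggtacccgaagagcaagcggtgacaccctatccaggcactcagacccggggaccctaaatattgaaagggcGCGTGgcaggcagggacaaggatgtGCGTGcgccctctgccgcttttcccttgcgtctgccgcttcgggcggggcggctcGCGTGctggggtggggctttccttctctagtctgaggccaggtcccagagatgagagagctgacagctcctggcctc

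Tiparp: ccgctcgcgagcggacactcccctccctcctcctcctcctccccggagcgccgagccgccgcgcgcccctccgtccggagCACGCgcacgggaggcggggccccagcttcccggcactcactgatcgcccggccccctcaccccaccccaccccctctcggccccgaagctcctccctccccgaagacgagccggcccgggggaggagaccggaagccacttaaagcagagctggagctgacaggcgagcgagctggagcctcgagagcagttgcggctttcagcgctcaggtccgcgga

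The Ahrr window held the core 3 times, all on the printed strand, beginning 107, 82 and 27 bases before the start. The Tiparp window held it 1 time, on the other strand, 170 bases before the start. Arnt had 1 match, Ptges3 had 2, and Hif1a had none among these letters. Both strands were searched and matches could overlap. Of 32851 RefSeq promoter windows of the same length, 32.4% held at least 1 match and 3.91% held 3 or more. A match describes the letters of the window and is no evidence of binding.

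Totals ran from 3556106 counts (Ahrr-deficient 1) to 41668336 (Ahrr-deficient 2), an 11.7-fold range, so a count of 3 equals between 0.072 and 0.844 CPM (counts scaled to the library total) depending on the library. Wild-type 2 stood apart in that 1 ribosomal RNA gene took 5.28% of its counts, against at most 0.0679% elsewhere. All 10 macrophage markers had a row, and their summed level was 22199 to 27535 CPM in the wild-type libraries, against 15568 to 22932 CPM in Ahrr-deficient libraries, with 3 of the 10 lower, Csf1r and Cd14 among them, and none higher. Of 8 alveolar-type macrophage markers 4 were higher (Car4, Pparg, Itgax and Plet1). The summed levels of the 8 overlapped, at 36278 to 39186 CPM for wild-type and 35618 to 37976 CPM for mutant libraries. Lyz2 made up most of the macrophage sum and Chil3 nearly all of the alveolar-type sum. Neither passed the threshold (edgeR adjusted p = 0.0926 for Lyz2 and 0.420 for Chil3), so these sums say little about the other markers. Summed levels of 3 hepatocyte markers (158 to 186 against 89.7 to 119.8 CPM, nearly all Trf) and of 3 erythroid markers (13.49 to 23.0 against 2.86 to 4.96 CPM, nearly all Epor) were lower in the mutant group, and that of 3 dendritic markers (57.6 to 62.1 against 72.0 to 93.2 CPM, nearly all Clec9a) was higher. Sums of 3 neutrophil markers (9.57 to 12.9 against 5.93 to 8.09 CPM) and of 1 megakaryocyte marker, Itga2b (2.698 to 3.008 against 1.21 to 1.97 CPM), were lower without overlap. The other markers of these lists had no entry among the 16111 genes with identifiers. The part of these shifts in the members' differences was not tested, and in such bulk samples fewer cells of a type cannot be told apart from less RNA per cell. Nothing says whether the 3 samples of a genotype came from separate litters, and p-values measure the spread between these samples.

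The comparison of the genotypes asks how transcripts of the receptor system differ when the repressor is missing. The receptor's own mRNA was 4.00-fold higher in Ahrr-deficient macrophages and Hif1a was 1.38-fold higher, whereas Tiparp and Ahrr, the deleted gene, were lower. The shared partner Arnt, both HSP90 genes and Ptges3 did not pass the test. So 4 of the 8 members passed the threshold, 2 in each direction, at an adjusted p under 0.05 in edgeR's quasi-likelihood test over 11408 tested genes. Of all tested genes 19.6% passed, 9.62% higher and 9.95% lower. In CPM the groups of 3 libraries did not overlap for 7 of the 8 members, all but Arnt, against 36.6% of all tested genes. CPM rests on raw totals, and with the deposited size factors the groups overlapped for Ptges3 too. The median log2 fold change was 0.17 over the members and 0.01 over all tested genes.

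**Figure D1:**
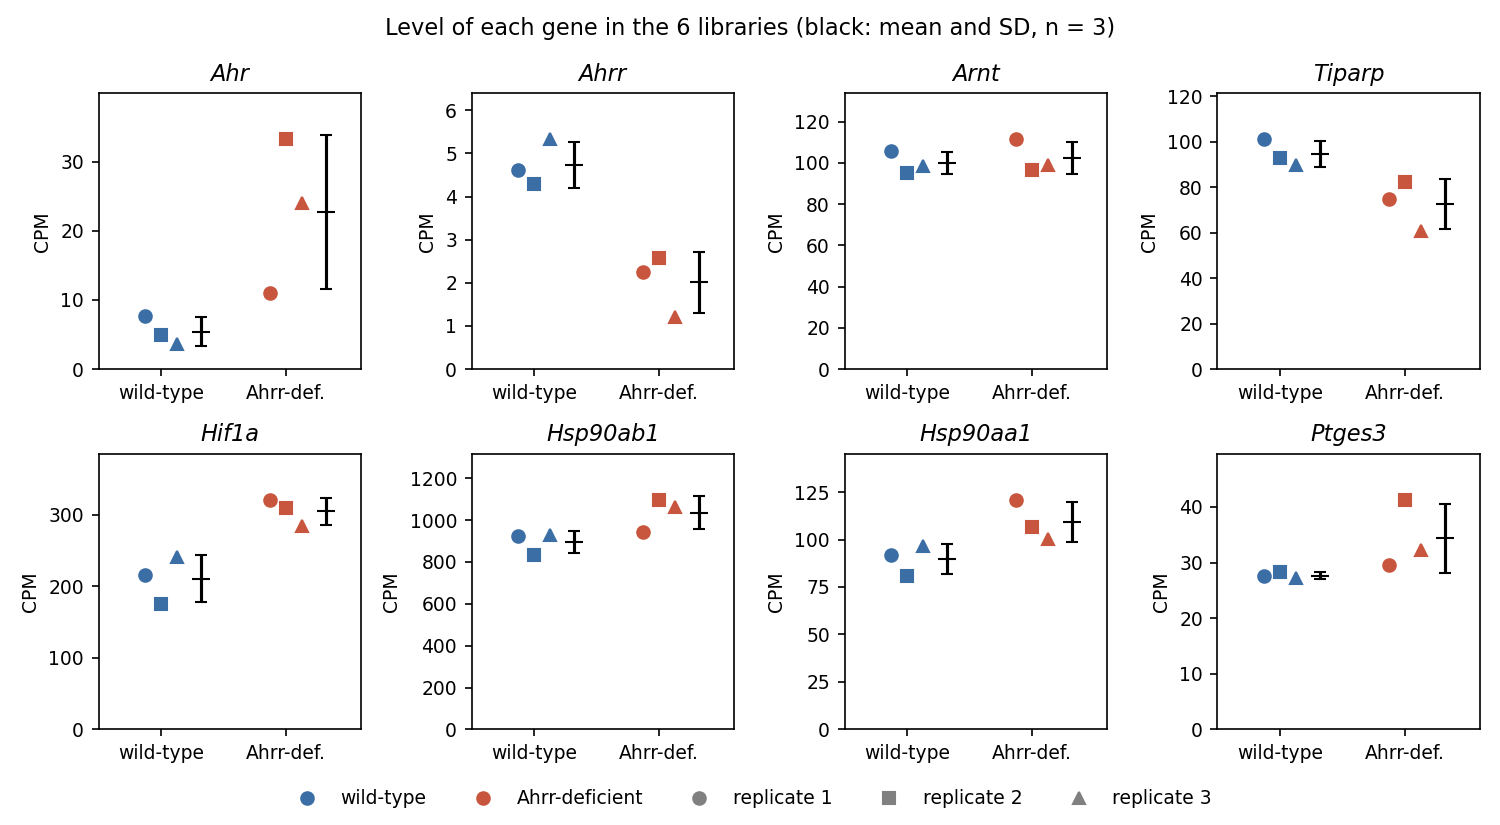
CPM of each of the 8 genes in every library, with wild-type in blue, Ahrr-deficient in red, a shape for each replicate number and a black bar for mean and SD (n = 3); each vertical axis starts at 0 and has its own scale. Ahr spans 3.64 to 7.66 CPM for wild-type and 11.0 to 33.2 CPM for Ahrr-deficient libraries, and Arnt is the gene whose groups overlap.

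Ahrr, the deleted gene, checks the labels. It lies on the minus strand of chromosome 13 (GRCm38, chr13:74211118-74292331) and had 101, 27 and 38 reads in wild-type 1, 2 and 3 and 8, 107 and 12 reads in Ahrr-deficient 1, 2 and 3. Scaled to library size these were 4.60, 4.29 and 5.32 CPM in the wild-type libraries, against 2.25, 2.57 and 1.21 CPM in Ahrr-deficient cells. Every mutant library was thus below every wild-type one, and none was at 0. The group means were 4.74 ± 0.53 (SD, n = 3) and 2.01 ± 0.71 CPM, and the log2 fold change was -1.21 with a standard error of 0.26 (95% interval -1.81 to -0.62, adjusted p = 0.0151 in edgeR). The files give 1 count for the whole gene, so the remaining reads cannot be placed inside or outside a deleted stretch. Without wild-type 1 the edgeR adjusted p was 0.0631 (log2 fold change -1.29), and without wild-type 3 it was 0.0502 (-1.18). When every library was thinned at random to the size of the smallest, 10 of 20 draws kept the call, 1 draw left the gene below the filter, and the log2 fold change ranged from -1.94 to -0.52 in the rest.

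Ahr showed the widest shift among the members. The gene lies on the minus strand of chromosome 12 (chr12:35497974-35535038) and had 168, 31 and 26 reads in wild-type 1, 2 and 3, and 39, 1384 and 237 reads in the mutant libraries. Its level was 7.66, 4.92 and 3.64 CPM in the wild-type libraries, against 11.0, 33.2 and 24.0 CPM in Ahrr-deficient 1, 2 and 3. The groups did not overlap, but Ahrr-deficient 1, the shallowest library, lay much nearer to wild-type 1 than to the other mutant libraries. The means were 5.41 ± 2.05 and 22.7 ± 11.2 CPM (SD, n = 3). The log2 fold change was 2.00 with a standard error of 0.35 (95% interval 1.21 to 2.80), a 4.00-fold difference with an interval of 2.31 to 6.94, and the edgeR adjusted p was 0.00709. Of all tested genes, 0.368% were called with a rise at least this large. The call held in all 15 other settings that gave a value, with a log2 fold change of 1.61 to 2.42, and in 20 of 20 thinnings.

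Arnt, the partner that both the receptor and its repressor need, did not pass the test. Its reads at chr3:95434388-95497240 (plus strand) gave 106, 95.2 and 98.6 CPM in the wild-type libraries, against 111, 96.6 and 99.0 CPM in Ahrr-deficient 1, 2 and 3. The ranges overlapped, with Ahrr-deficient 1 above every wild-type library. The log2 fold change was -0.05 with a standard error of 0.09 (adjusted p = 0.736 in edgeR). Its sign differs from that of the mean CPM, 99.8 in wild-type and 102 in mutant libraries. CPM uses raw totals, while the fit rescales the libraries. The 95% interval of the log2 fold change, -0.25 to 0.15, bounds the difference between 0.841-fold and 1.11-fold.

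**Figure D2:**
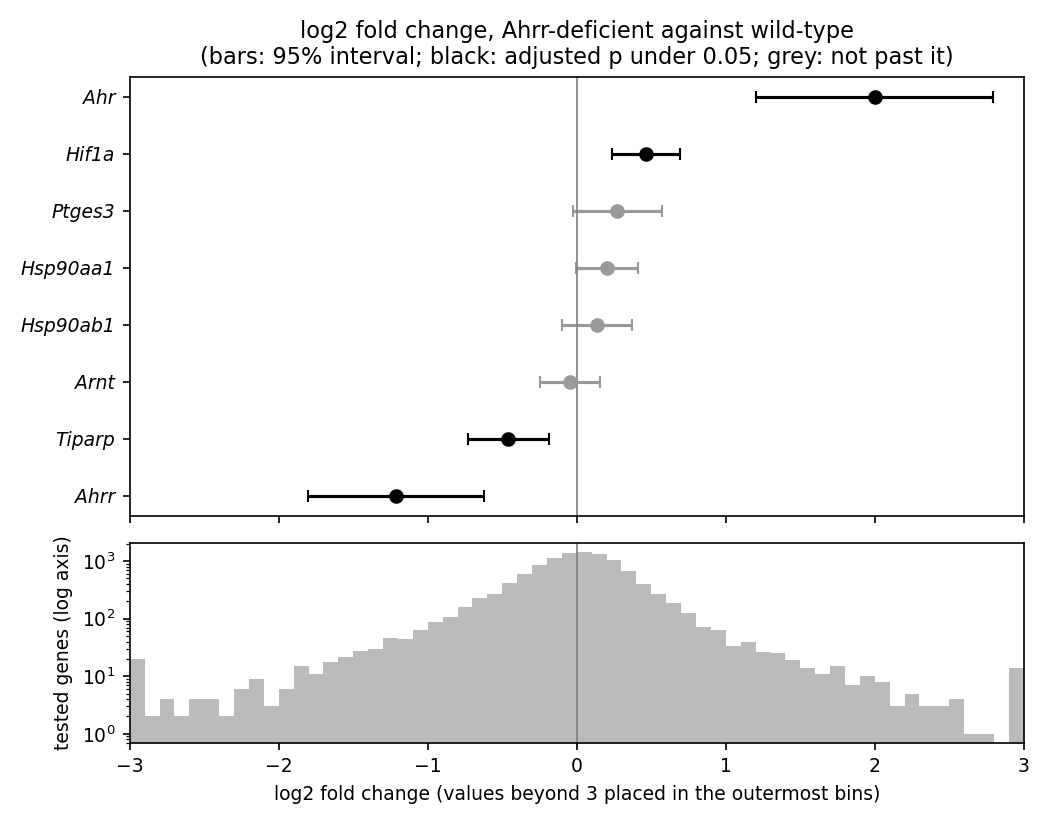
Above, log2 fold change (Ahrr-deficient against wild-type) of each member with its 95% interval from edgeR, black where the adjusted p was under 0.05 and grey otherwise; below, on the same horizontal axis, the number of tested genes per bin (log vertical axis), with a vertical line at no difference. Ahr at 2.00 and Ahrr at -1.21 lie farthest from the line, and the intervals of Arnt, Ptges3, Hsp90ab1 and Hsp90aa1 include it.

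Because a ratio of reads within a library does not depend on its depth scaling, the receptor was also set against its repressor and its partner. Wild-type 1, 2 and 3 had 1.66, 1.15 and 0.684 Ahr reads for every Ahrr read, and the mutant libraries had 4.88, 12.9 and 19.8. The mutant ratios all lay above the wild-type ones, with a difference of 3.30 on the log2 scale, or 9.84-fold. Since Ahrr is the deleted gene, this ratio joins the Ahr and Ahrr differences given above and is no separate result. It also rests on only 8 and 12 Ahrr reads in Ahrr-deficient 1 and 3. Ahr reads per Arnt read were 0.0725, 0.0517 and 0.0369 in wild-type and 0.0985, 0.344 and 0.242 in Ahrr-deficient cells, a log2 difference of 1.96 (3.90-fold) with no overlap. Each of these had a two-sided exact permutation p of 0.1, the smallest that 3 samples against 3 can give, and 0.15 after Benjamini-Hochberg adjustment over the 3 ratios computed. The reads are not corrected for transcript length in these ratios.

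**Figure D3:**
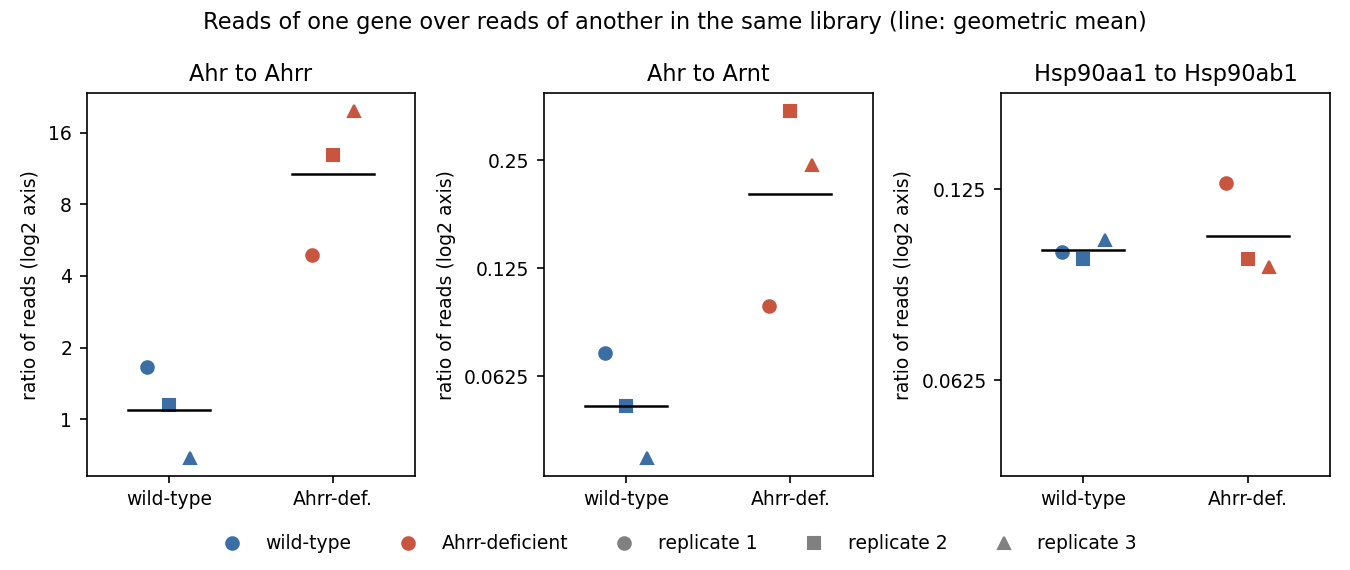
Ratio of reads of 1 gene to reads of another within each library, on a log2 vertical axis, for Ahr to Ahrr, Ahr to Arnt and Hsp90aa1 to Hsp90ab1; each point is a library and each line a geometric mean. Ahr to Ahrr runs from 0.684 to 1.66 in wild-type and from 4.88 to 19.8 in Ahrr-deficient libraries, while the HSP90 ratio overlaps between genotypes.

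Tiparp, the receptor-induced enzyme that marks the receptor with ADP-ribose, was lower in the mutant libraries. Its level at chr3:65528410-65555518 (plus strand) was 101, 92.9 and 89.9 CPM in the wild-type libraries, against 74.8, 82.1 and 60.6 CPM in Ahrr-deficient 1, 2 and 3. The groups did not overlap, and the lowest mutant library was Ahrr-deficient 3, which also had the lowest Ahrr level. The means were 94.6 ± 5.7 and 72.5 ± 10.9 CPM (SD, n = 3). The log2 fold change was -0.46 with a standard error of 0.12 (95% interval -0.73 to -0.19, adjusted p = 0.0288 in edgeR). Left out 1 at a time, 3 libraries ended the call: wild-type 1 (-0.43, edgeR adjusted p = 0.123), wild-type 2 (-0.42, 0.101) and Ahrr-deficient 3 (-0.35, 0.0712). Its call held in 14 of 20 thinnings, with an edgeR adjusted p of up to 0.0740. A gene on the other strand, 4931440P22Rik, overlaps 5.12% of its exon bases and the kit used does not mark strand. That gene had 3.20% as many reads and a lower fitted level too (log2 fold change -0.42, edgeR adjusted p = 0.263).

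None of the 3 chaperone genes of the cytosolic complex passed the test. Hsp90ab1, the constitutive HSP90 (chr17:45567775-45573271, minus strand), had 922, 834 and 929 CPM in the wild-type libraries, against 945, 1097 and 1064 CPM in Ahrr-deficient 1, 2 and 3. The lowest mutant library was only just above the highest wild-type one. Its log2 fold change was 0.14 with a standard error of 0.10 (95% interval -0.10 to 0.37, adjusted p = 0.377 in edgeR).

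Hsp90aa1, the stress-inducible HSP90 (chr12:110690605-110702728, minus strand), had 91.8, 80.9 and 96.4 CPM in the wild-type libraries, against 121, 106 and 100.2 CPM in the mutant libraries. The groups did not overlap, yet the log2 fold change of 0.20 (standard error 0.09, 95% interval -0.0042 to 0.41) had an edgeR adjusted p of 0.147. Of the 75-base windows of its transcripts 42.8% also occur in transcripts of other genes, mainly the processed pseudogene Gm12346, so its level is uncertain by what the authors' counting did with such reads. Gm12346 itself had 0.706% as many reads. Hsp90aa1 reads per Hsp90ab1 read were 0.0996, 0.0970 and 0.104 in wild-type and 0.128, 0.0970 and 0.0942 in Ahrr-deficient cells, which overlapped (log2 difference 0.07, exact permutation p = 1.0, also after adjustment).

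Ptges3 encodes p23, which holds HSP90 in the form that keeps the receptor ready for ligand. It had 27.6, 28.3 and 27.2 CPM in the wild-type libraries, against 29.5, 41.3 and 32.3 CPM in Ahrr-deficient 1, 2 and 3 (chr10:128058954-128077272, plus strand). In CPM all mutant libraries were above the wild-type ones, which lay close together, and the mutant spread came mainly from Ahrr-deficient 2. In the deposited normalised counts, divided by size factors instead of totals, wild-type 2 lay above Ahrr-deficient 1 and apart from the other wild-type libraries. The log2 fold change was 0.27 with a standard error of 0.13 (95% interval -0.03 to 0.57, adjusted p = 0.177 in edgeR). It passed the threshold in 1 of the other settings, when wild-type 2 and Ahrr-deficient 1 were both left out (0.41, edgeR adjusted p = 0.0442). Of its 75-base windows 18.5% also occur in transcripts of other genes, nearly all in the pseudogene Ptges3-ps. Ptges3-ps had 5.38% as many reads and differed by 0.78 on the log2 scale (adjusted p = 0.0585 in edgeR), so the level of Ptges3 is uncertain in the same way as that of Hsp90aa1.

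Hif1a, which draws on the same partner protein as the receptor, was higher in the mutant cultures. It had 216, 176 and 241 CPM in the wild-type libraries, against 321, 309.8 and 284 CPM in Ahrr-deficient 1, 2 and 3 (chr12:73901375-73947530, plus strand). The mutant libraries lay close together and above every wild-type library, and Ahrr-deficient 1, lowest of the mutant group for Ahr, was the highest for Hif1a. The means were 211 ± 32.9 and 305 ± 19.2 CPM (SD, n = 3). The log2 fold change was 0.46 with a standard error of 0.10 (95% interval 0.23 to 0.69, adjusted p = 0.0162 in edgeR). Without wild-type 1 the edgeR adjusted p was 0.0749 and without wild-type 2 it was 0.0668, with log2 fold changes of 0.46 and 0.40. The antisense gene Gm15283 overlaps 5.60% of its exon bases and had a log2 fold change of 0.03.

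Levels can be ordered between genes once CPM is divided by the kilobases of exon. In wild-type macrophages the order was Hsp90ab1 at 298, Hif1a at 35.7, Hsp90aa1 at 22.8, Tiparp at 21.7, Ptges3 and Arnt at 12.5 each, Ahr at 0.877 and Ahrr at 0.502 CPM per kilobase. The ranges of Hsp90aa1 and Tiparp overlapped, as did those of Ptges3 and Arnt, while every other pair of neighbours was separate. The receptor and its repressor were thus the scarcest transcripts of the system, each well below the partner they share. In Ahrr-deficient cells Ahr reached 3.69 and Ahrr 0.213 CPM per kilobase, Arnt stood at 12.8, and Tiparp at 16.6, Ptges3 at 15.5 and Arnt now overlapped in turn. The order of the means was the same in both genotypes.

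Genes that work with or downstream of the 8 members were described from 9 lists. Together they held 125 tested genes, of which 15 were higher and 19 lower, a share of 27.2% against 19.6% of all tested genes. The lists overlap the biology that earlier results on these samples brought up, so their counts are a description. Where a pair of values stands in parentheses, the first is the log2 fold change and the second the edgeR adjusted p.

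Among 15 listed AhR target genes 4 could be tested, and 2 rose (50% of those tested, against 19.6% of all tested genes). Slc7a5, the large neutral amino acid transporter that also carries tryptophan and kynurenine, had 18.9, 9.52 and 9.81 CPM in the wild-type libraries, against 24.2, 179 and 114 CPM in Ahrr-deficient 1, 2 and 3. Ahrr-deficient 1 again stayed near wild-type 1, as it did for Ahr. Its log2 fold change was 2.95 (adjusted p = 0.00979 in edgeR). Stc2, which encodes the secreted glycoprotein stanniocalcin, went from 1.49 ± 0.47 to 3.71 ± 1.68 CPM (SD, n = 3, log2 fold change 1.34, edgeR adjusted p = 0.0255). Nfe2l2, the oxidative stress factor NRF2, and Ugt1a6a, a glucuronosyltransferase, had log2 fold changes of -0.14 and -0.43 with edgeR adjusted p of 0.442 and 0.308. The classic receptor targets Cyp1a1, Cyp1a2 and Cyp1b1 had no entry among the 16111 genes with identifiers, so no level can be given. Genes with an identifier were all the features that had at least 10 reads in total over the 6 libraries. Any feature counted under these 3 names thus had fewer than 10 reads in total. Of the 15 listed genes 9 had an entry, and the median rests on the 4 tested ones, which lay on both sides of 0. It was 0.60, beside 0.01 over all tested genes. Ahrr and Tiparp, also receptor targets, were left out of the list as members. Tiparp was lower (-0.46). Ahrr was lower too (-1.21), but it is the deleted gene, so its level does not show how receptor targets respond.

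In the list of the cytosolic complex and HSP90 co-chaperones 4 of 19 tested genes rose and 1 fell, and the median log2 fold change was -0.03. Together these were 26.3% of the list, near the 19.6% of all tested genes. Src, the kinase carried in the receptor complex, rose from 2.37 ± 0.87 to 7.15 ± 2.98 CPM (SD, n = 3, log2 fold change 1.53, edgeR adjusted p = 0.0132). The HSP90-binding immunophilin Fkbp5 rose from 27.3 ± 2.9 to 48.3 ± 5.3 CPM (0.76, 0.00285), while its paralogue Fkbp4 fell from 75.2 ± 4.8 to 61.4 ± 6.9 CPM (-0.36, 0.0367). Of 12 tested heat shock genes 2 rose and none fell: the HSP110-family chaperones Hspa4l (0.63, 0.00527) and Hspa4 (0.29, 0.0391), with a list median of 0.11. That was 16.7% of the list, below the 19.6% of all tested genes. The cofactor list had 1 higher and 4 lower genes of 21, or 23.8%, also near that share. The higher gene was Klf6, a zinc-finger factor able to pair with the receptor, at 179 ± 19.2 and 300.3 ± 19.96 CPM (0.66, edgeR adjusted p = 0.00758). The deacetylase Hdac5 fell from 91.8 ± 3.3 to 63.0 ± 6.1 CPM (-0.63, 0.00585) and the coactivator Ncoa1 from 167 ± 6.8 to 134 ± 19.0 CPM (-0.39, 0.0359). The list median was -0.03.

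Relatives of the receptor in the bHLH-PAS family moved in both directions, with 2 of 9 tested genes higher and 4 lower and a median of 0.13. Together these were 66.7% of the list, against 19.6% of all tested genes. Arnt2, the paralogue of Arnt, had 0.68, 0.32 and 0.42 CPM in the wild-type libraries, against 1.69, 4.90 and 3.34 CPM in Ahrr-deficient 1, 2 and 3. These rest on only 15, 2 and 3 reads in wild-type 1, 2 and 3, and on 6, 204 and 33 reads in Ahrr-deficient 1, 2 and 3. The groups were separate, at levels far below the wild-type mean of 99.8 CPM of Arnt, and the log2 fold change was 2.73 (adjusted p = 0.00409 in edgeR). Arnt2 gave a value in 13 of the 15 other settings. It had none when libraries were thinned to the smallest total or filtered at a mean of at least 50 counts. An antisense gene, Gm30873, overlaps 2.78% of its exon bases. The clock gene Per1 fell from 295 ± 31.5 to 163 ± 4.1 CPM (-0.93, 0.00102), and Npas2, a partner of the clock factor BMAL1, from 1.505 ± 0.210 to 0.627 ± 0.207 CPM (-1.58, 0.0151). Per2, another clock gene, passed as higher (0.80, edgeR adjusted p = 0.0479) with overlapping groups. Epas1, which encodes the Hif1a paralogue HIF-2α and was singled out after its values were seen, fell from 746 ± 49.2 to 569 ± 51.9 CPM (-0.47, 0.0343), opposite in direction to Hif1a.

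Around Hif1a, 1 of 13 tested genes of HIF-1α turnover was higher and 2 were lower, with a median of 0.02. Together these were 23.1% of the list, near the 19.6% of all tested genes. The oxygen-sensing prolyl hydroxylase Egln1 rose from 58.2 ± 2.6 to 74.9 ± 3.4 CPM (0.29, edgeR adjusted p = 0.0347), and Egln3 fell from 121 ± 47.7 to 54.2 ± 8.2 CPM (-1.27, 0.0192). Cited2, a competitor of HIF-1α for the coactivator p300, fell from 110.0 ± 20.3 to 59.9 ± 6.1 CPM (-0.96, 0.00658). Of 22 tested HIF target genes 2 were higher and 5 lower (31.8% of the list), with a median of 0.01. Vegfa, the vascular growth factor, had 259, 299 and 173 CPM in the wild-type libraries, against 77.9, 115 and 86.4 CPM in Ahrr-deficient 1, 2 and 3 (-1.46, edgeR adjusted p = 0.00496). The stress-response gene Ddit4 fell as well (-0.88, 0.0228). In the other direction, the clock-linked repressor Bhlhe40 rose from 221 ± 32.9 to 618 ± 129 CPM (1.41, edgeR adjusted p = 0.00158) and the glycolytic enzyme Hk2 from 57.3 ± 6.6 to 104.9 ± 32.05 CPM (0.82, 0.0174). The higher Hif1a transcript went with target genes on both sides.

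Around Tiparp, 3 of 20 tested PARP enzymes and ADP-ribose removers were lower and none was higher, with a median of -0.09. That was 15% of the list, below the 19.6% of all tested genes. They included Macrod1, an ADP-ribose hydrolase, at 18.1 ± 2.4 and 13.1 ± 1.4 CPM (-0.61, edgeR adjusted p = 0.0182), and Parp8, whose groups overlapped (-1.17, 0.0413). Tryptophan and kynurenine metabolism, a source of receptor ligands, had 5 tested genes, 1 higher (20%) and none lower, with a median of 0.31. That gene was Wars, the tryptophanyl-tRNA synthetase, at 94.6 ± 13.7 and 149 ± 18.8 CPM (0.59, edgeR adjusted p = 0.00721).

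**Figure D4:**
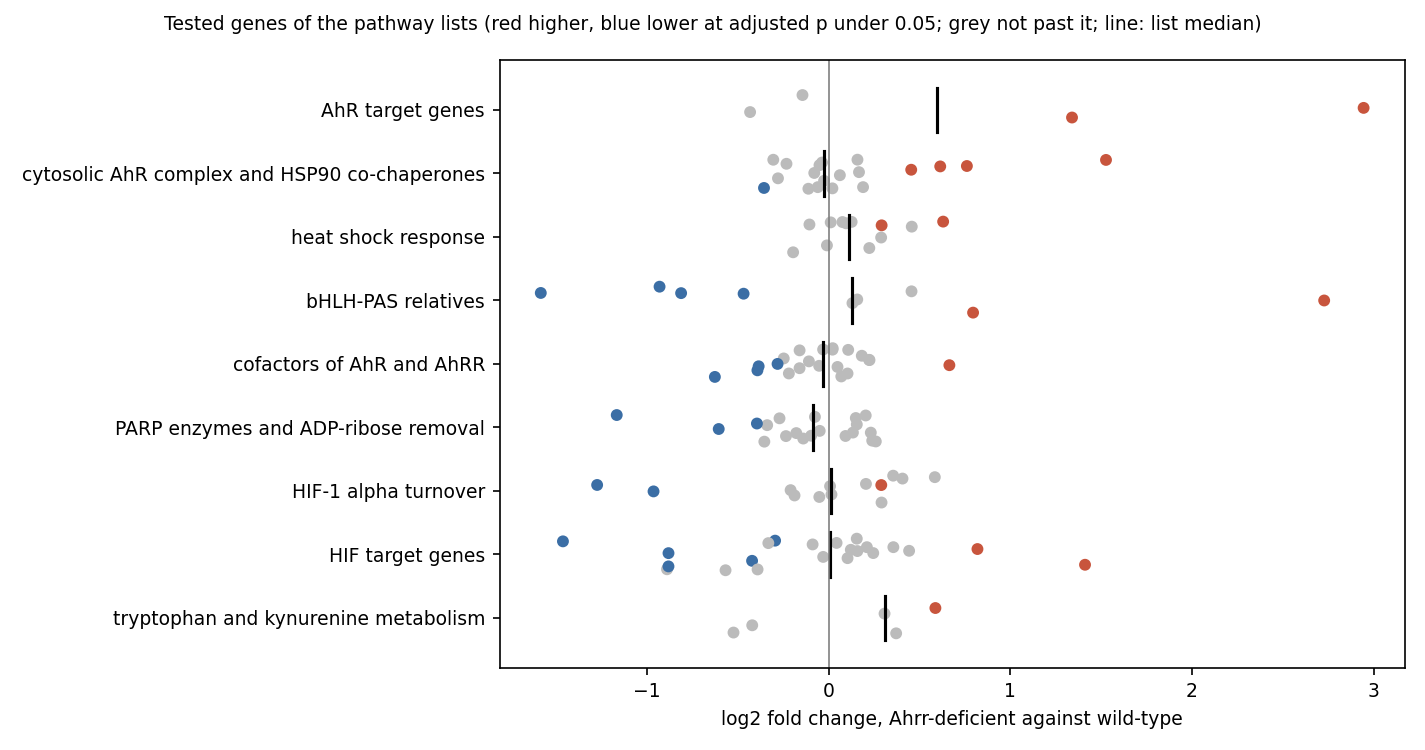
Log2 fold change (Ahrr-deficient against wild-type, horizontal axis) of every tested gene in the 9 lists, 1 list per line; red points were higher and blue points lower at an edgeR adjusted p under 0.05, grey points did not pass, and black bars mark list medians. Most list medians lie near 0, with Slc7a5 at 2.95 and Arnt2 at 2.73 at the right edge.

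With 1 library left out at a time, the calls of Slc7a5, Fkbp5, Hspa4l, Arnt2, Per1, Klf6, Hdac5, Cited2, Vegfa, Bhlhe40 and Wars held in all 6 fits, as did that of Ahr. The call of Src held in 5 and was lost without Ahrr-deficient 2 (edgeR adjusted p = 0.0735). Those of Egln3 and Npas2 held in 3, those of Fkbp4, Macrod1 and Ddit4 in 2, and those of Ncoa1, Stc2, Hk2, Hspa4, Per2, Parp8 and Egln1 in 1 of the 6. None of these genes changed direction, and the highest edgeR adjusted p among them was 0.185, for Parp8.

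The genes most like Ahr and Ahrr across the 6 libraries were found among 11399 tested genes by the root mean square difference of centred log2 CPM. Nearest to Ahr were Slco2a1, a prostaglandin transporter (0.141), Etv5, an ETS transcription factor (0.198), and Plau, the urokinase plasminogen activator (0.20), where the median gene was at 1.11. Plau had 5.97, 6.03 and 3.50 CPM in the wild-type libraries, against 9.56, 31.3 and 24.98 CPM in Ahrr-deficient 1, 2 and 3. Like Ahr, all 3 were highest in Ahrr-deficient 2 and lowest of the mutant group in Ahrr-deficient 1. Nearest to Ahrr were the unnamed genes Gm19345 (0.163) and Gm45515 (0.166) and Atf3, a stress-induced transcription factor (0.207), against a median of 0.749. Atf3 had 187, 181 and 188 CPM in the wild-type libraries, against 113, 105 and 72.2 CPM in Ahrr-deficient 1, 2 and 3, with its lowest value, like that of Ahrr, in Ahrr-deficient 3. These genes were picked for their pattern, so no test is given of it.

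**Figure D5:**
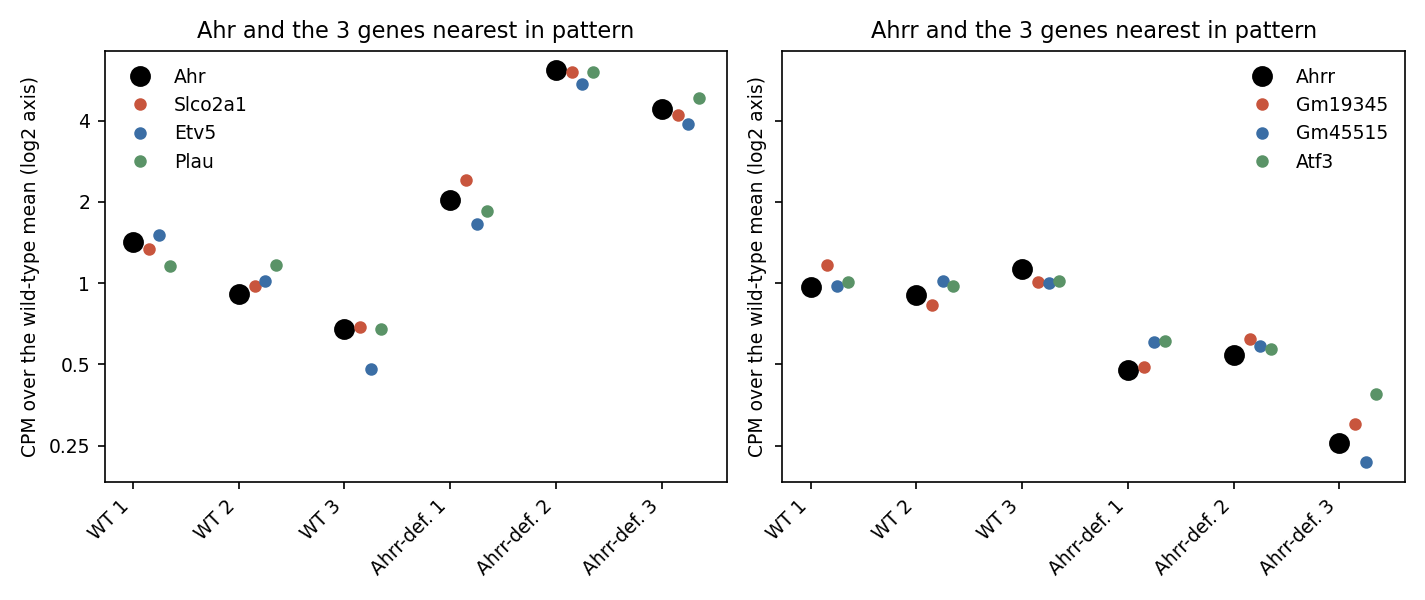
CPM divided by the wild-type mean (log2 vertical axis) in each of the 6 libraries for Ahr and its 3 nearest genes (left) and Ahrr and its 3 nearest genes (right); black points are the member and coloured points the other genes. On the left the mutant points are lowest in Ahrr-deficient 1, and on the right in Ahrr-deficient 3.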

How the data were processed

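PolyA RNA of 6 cultures (100 ng each, TruSeq RNA kit v2) was read as 75-base single ends. The submitters' processing notes name CASAVA 1.8.2, fastp 0.20.0, STAR 2.7.10b, SAMtools 1.16.1, R 4.3.1, DESeq2 1.40.2 and the build mm10. The counting program, its annotation and use of strand are not given in the sources used here. The authors deposited raw counts for 53465 features without identifiers, and a normalised signal (counts divided by a size factor) for 16111 genes with identifiers. Whole reads were recovered from 100% of signal values (within 1e-04 reads), and these counts were tested. CPM uses the raw totals, while fitted fold changes use TMM scaling, so a fold change can differ somewhat from the ratio of mean CPM. Features without an identifier held 0.0232 to 0.0511% of counts. Within a genotype, no 2 libraries were duplicates.

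Genotypes were compared with edgeR 4.0.16 (quasi-likelihood, TMM, filterByExpr, Benjamini-Hochberg, threshold 0.05) in R 4.3.3; 2232 of 11408 genes passed. Intervals are 95%. DESeq2 1.42.0, limma-voom 3.58.1 and other settings were alternatives, and the code was tested on simulated data. Exon lengths and overlaps come from GENCODE M21, in which 16088 identifiers were found.

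Named are all 8 members, up to 2 genes per list and direction with the largest change past the threshold (mean of at least 10 counts), and the 3 genes nearest in pattern to Ahr and to Ahrr. Members and lists were chosen with earlier results of these data known.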

Additional observations from a re-analysis of the deposited data

How the results depend on the processing

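Leaving out 1 library at a time moved the number of genes past the threshold from 2232 to between 694 (without wild-type 1) and 3857 (without Ahrr-deficient 1), also 965, 1107, 948 and 1175 without wild-type 2, wild-type 3, Ahrr-deficient 2 and Ahrr-deficient 3. The members past it then numbered 1 to 4, and the list genes 14 to 54 instead of 34. Across these fits the log2 fold change was -1.69 to -1.0 for Ahrr, -0.57 to -0.35 for Tiparp and 0.40 to 0.53 for Hif1a. The Hsp90aa1 to Hsp90ab1 log2 ratio difference ranged from -0.0665 to 0.154, with the sign reversed without Ahrr-deficient 1. Thinned to the smallest total, 1197 genes passed. With wild-type 2 and Ahrr-deficient 1 both left out, a setting chosen after seeing the data, Ptges3 passed (0.41).

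Replicate numbers mark different mice, and deviations of same-numbered libraries correlated at -0.17, 0.07 and 0.13, with 0 of 3 Ahrr-deficient libraries correlating best with its own number. A replicate block left 1390 genes and 21 list genes past the threshold and changed no member's call. Ahrr was removed by a filter of a mean of at least 50 counts and so has no value there. The cause of these shifts was not tested. The Ahrr and Tiparp calls held in 10 and 14 of 20 thinnings, against 20 of 20 for Ahr and Hif1a. Over all genes, thinning to the smallest total also lowered the number past the threshold, from 2232 to 1197.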

Other observations

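Ahrr-deficient 1 lay nearest to wild-type for Ahr, Slc7a5, Stc2, Src, Arnt2 and Plau, and the same place in the order was counted over all genes. Of the 1097 genes called higher, 61.9% had their lowest mutant level in Ahrr-deficient 1, against 45.8% of the 9176 genes that did not pass. Of the 1135 genes called lower, 55.7% had their highest mutant level there, against 37.2% of those that did not pass. Of the 4 called members, Ahr alone followed this order: Hif1a was highest in Ahrr-deficient 1, and Ahrr and Tiparp had their highest mutant level in Ahrr-deficient 2. The library is also the shallowest, at 3556106 counts, and the part of depth in this order was not tested.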
